A study of Mus musculus with 24 samples.

Results

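The miR-200 family comprised 5 mature miRNAs of the 1881 on the array, namely miR-200b-3p, miR-200a-3p, miR-429-3p, miR-200c-3p and miR-141-3p, chosen by name with each of their 10 probes. A miRNA is a short RNA that pairs with messenger RNAs, mainly through its seed, and lowers their translation or stability. The miR-200 family is known for repressing the transcription factors Zeb1 and Zeb2, which in turn repress both miR-200 loci, and its members mark epithelial cells. In the liver they are known mainly from the bile duct epithelium rather than from hepatocytes.

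Liver and serum came from male C57BL/6NJcl mice bought at 5 weeks of age and acclimatized for 1 week. The NASH group (non-alcoholic steatohepatitis model) ate a choline-deficient high-fat diet (CDAHFD, A06071302) with 0.1% methionine, and the Control group ate the CE-2 chow, for 1, 2 or 6 weeks, so that the mice were 7, 8 or 12 weeks old. Each of the 12 groups of tissue, diet and week had 2 arrays, 24 in all, and both diets were sampled at the same ages. Nothing in the labels ties an array to 1 animal or to a pool, so every p-value rests on array-to-array spread, part of which may be technical. Serum was prepared from heart blood, and the labelled input was 2.5 ng of RNA for serum and 100 ng for liver. These are bulk samples, in which fewer cells of a type and less RNA per cell cannot be told apart.

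The 5 sequences show how alike the members are and which share a seed. All 5 were found in the RefSeq table (GRCm38.p6), all on the minus strand. They are written 5′ to 3′, with the seed (bases 2 to 8) in capitals:
mmu-miR-200b-3p: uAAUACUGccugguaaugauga
mmu-miR-429-3p: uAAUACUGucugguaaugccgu
mmu-miR-200c-3p: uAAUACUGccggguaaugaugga
mmu-miR-200a-3p: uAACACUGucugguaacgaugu
mmu-miR-141-3p: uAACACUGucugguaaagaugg

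The first 3 sequences shared the seed AAUACUG and the last 2 the seed AACACUG, a difference of 1 base (U4C, counted from the 5′ end, miR-200b-3p first). No other mature miRNA of the 1679 in the table had either seed. The seed groups cut across the genomic loci. The genes Mir200b (chr4:156055685-156055706 for the mature arm), Mir200a (chr4:156054911-156054932) and Mir429 (chr4:156053916-156053937) lay within 1791 bases, in the span annotated as the long non-coding RNA gene Gm13648. Mir200c (chr6:124718324-124718346) and Mir141 (chr6:124717917-124717938) lay within 430 bases that no other annotated gene overlapped, with Phb2 971 bases to one side and Ptpn6 2360 bases to the other. The most alike pairs came from different loci: miR-200b-3p and miR-200c-3p differed at 2 of 22 compared positions (U11G and A22G), and miR-200a-3p and miR-141-3p also at 2 (C17A and U22G). How far a probe of one member also reads its near-identical relative was not tested, so the values within each of these pairs are uncertain as separate measurements.

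Levels are given as a percent of each array's 75th percentile signal, computed from probes that all 12 arrays of that tissue read well above background. Values under a floor of 2.25% in liver and 3.81% in serum were set to the floor and have no order among themselves. That 75th percentile was itself higher in NASH, by 0.43 on the log2 scale in liver (two-sided exact permutation within weeks, p = 0.0185, n = 6 arrays per diet) and by 0.78 in serum (exact p = 0.0278, n = 6). A member counts as well above background on an array where either of its probes was, and its level is that of the brighter probe. The hepatocyte markers miR-122-5p, miR-122-3p, miR-192-5p and miR-148a-3p identified the tissue: their summed level was 6391% to 18260% across liver arrays, and in serum 90.6% to 424% in Control and 1907% to 3191% in NASH. The haemolysis index (miR-451a against miR-23a-3p, as a log2 difference) ranged from -0.25 to 3.57 across serum arrays and was 0.44 lower in NASH serum on average (exact p = 0.417, n = 6).

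In liver, all 5 members were detected and none passed the test for a diet effect averaged over the weeks. The background was high: 42% of the 388 miRNAs tested in liver passed (limma, adjusted p below 0.05), 21.9% higher in NASH and 20.1% lower. At an unadjusted p below 0.05 the count was 2 of 5, miR-200b-3p and miR-200c-3p, beside 194 of 388 over all tested miRNAs. No member had all 6 NASH livers above, or all 6 below, the 6 Control livers, as 10.8% and 10.6% of tested miRNAs did. All 5 differences were above 0 under this and 4 other scalings, here from 0.21 to 0.80 on the log2 scale, beside a median of 0 over all tested miRNAs. Without scaling, the median over the 218 miRNAs detected on every liver array was itself above 0, at 0.30. With the normexp background correction, which adds an offset of 50 to every signal, all but miR-200b-3p turned below 0, from -0.14 to -0.052.

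**Figure D1:**
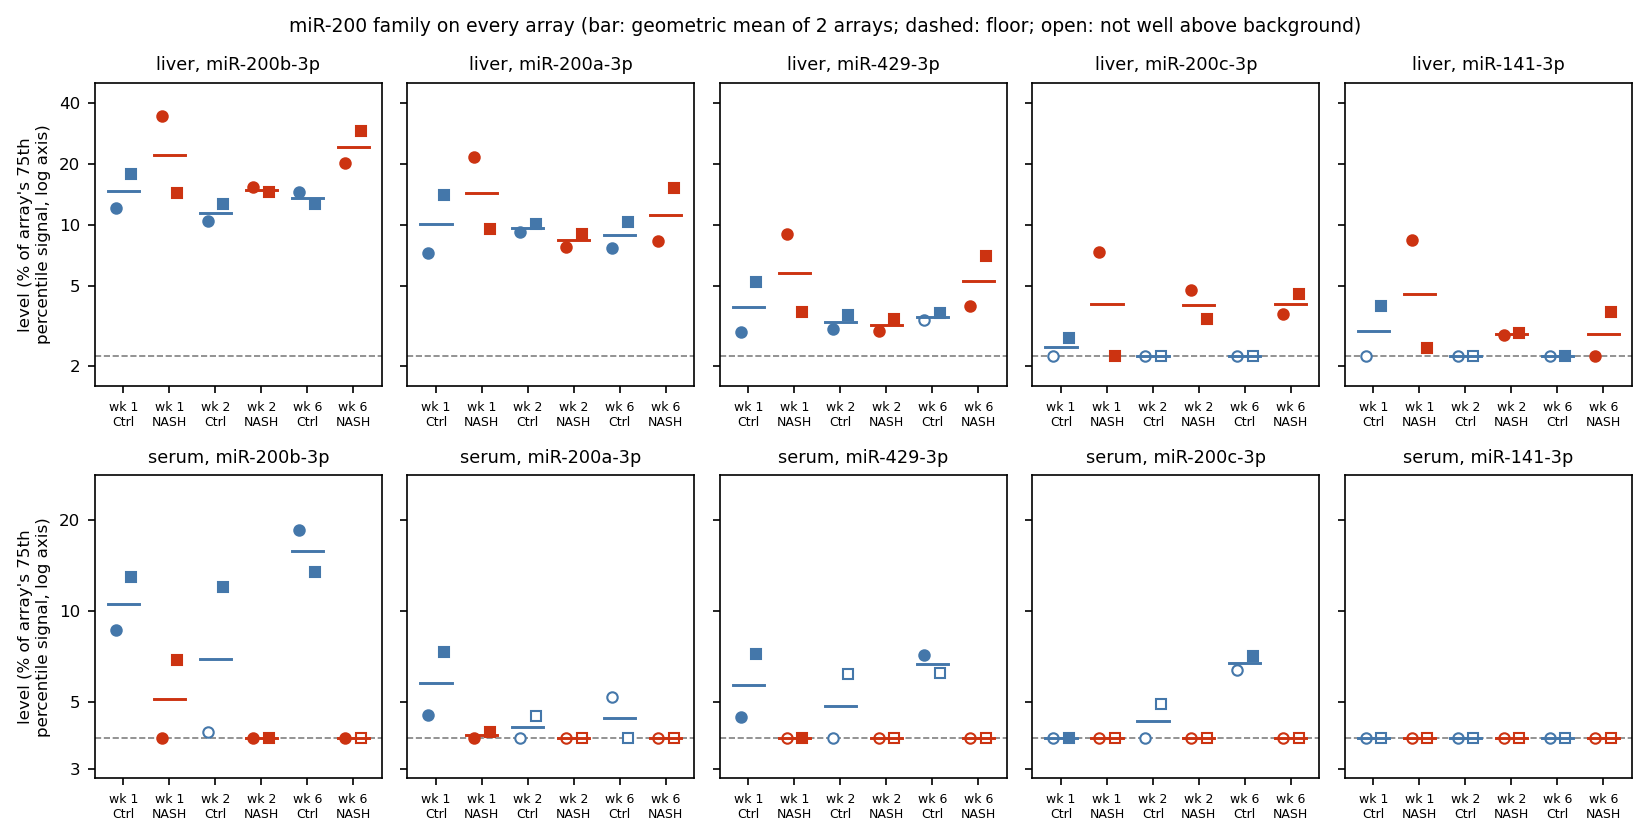
Level of each family member on every array, as a percent of the array's 75th percentile signal on a log axis, for liver (top) and serum (bottom), by week and diet; circles are replicate 1, squares replicate 2, bars the geometric mean of 2 arrays, open symbols arrays on which the plotted, brighter probe was not well above background and dashed lines the floor. In liver the NASH week 1 pair spreads widely (34.3% and 14.4% for miR-200b-3p), and in serum 5 of 6 NASH values of miR-200b-3p lie on the floor while all 6 Control values lie above it.

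miR-200b-3p, the member of the first locus with the largest liver difference, stood at 12.1% and 17.8% in the Control livers of week 1, 10.4% and 12.7% at week 2, and 14.5% and 12.6% at week 6. The NASH livers stood at 34.3% and 14.4% at week 1, 15.4% and 14.4% at week 2, and 20.1% and 29.0% at week 6. The diets overlapped at week 1, and at weeks 2 and 6 both NASH arrays lay above both Control arrays of the week. How many of all tested miRNAs were placed so in a week was not counted. The mean difference was 0.60 (SE 0.24, adjusted p = 0.0911), with NASH above its week's Control mean on 5 of 6 arrays. By week it was 0.59 at week 1, 0.38 at week 2 and 0.83 at week 6 (SE 0.42 each, adjusted p = 0.221 or higher).

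miR-200a-3p, transcribed beside miR-200b but with the other seed, ranged in liver from 7.25% to 14.1% (median 9.64%) in Control and from 7.78% to 21.6% (median 9.30%) in NASH. Only 2 NASH arrays, 1 of week 1 and 1 of week 6, lay above the Control range. Its difference was 0.21 (SE 0.29, adjusted p = 0.643), although NASH lay below its week's Control mean on 4 of 6 arrays. Without the week 1 NASH array labelled replicate 1 the difference was 0.018. miR-429-3p, the third product of that locus, ranged from 2.94% to 5.19% in Control and from 2.99% to 8.96% in NASH, with a difference of 0.37 (SE 0.28, adjusted p = 0.378). At week 2 the differences of miR-200a-3p (-0.20) and miR-429-3p (-0.044) were below 0, and both turned above 0 without scaling.

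miR-200c-3p of the second locus was well above background on 6 of 6 NASH livers and on 1 of 6 Control livers. NASH livers had more miRNAs detected in general, 354.5 on average against 288.8 in Control (two-sided exact permutation within weeks, p = 0.00926, the smallest possible, n = 6 arrays per diet), and the part of this in the member's detection was not tested. The NASH levels were 7.30% and the floor at week 1, 4.74% and 3.43% at week 2, and 3.64% and 4.58% at week 6. In Control, 1 array of week 1 stood at 2.75% and the other 5 arrays were at the floor. At weeks 2 and 6 every NASH array therefore lay above every Control array, 2 against 2 in each week. The share of all tested miRNAs placed in this way was not counted. Since no Control array of those weeks was well above background, the fold is a bound: at least 1.70-fold higher in NASH at week 2 and at least 1.59-fold at week 6 (the mean log2 level in NASH against the mean, per Control array, of the higher of its own signal and its lowest signal well above background).

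The difference of miR-200c-3p over the weeks was 0.80 (SE 0.29, adjusted p = 0.0692), and by week 0.70, 0.84 and 0.86 (SE 0.50 each, adjusted p = 0.255 or higher). It passed on leaving out either NASH array of week 1: without replicate 1 the difference was 0.50 (adjusted p = 0.0217), and without replicate 2 it was 1.05 (adjusted p = 0.0017). In a fit of every probe on its own its brighter probe passed (0.80, adjusted p = 0.0475) and its dimmer probe did not (0.13, adjusted p = 0.362). It was 1.27 (adjusted p = 0.00549) with a floor 0.1 times as high, 1.71 (adjusted p = 0.00986) by total signal and 0.13 (adjusted p = 0.62) with the floor doubled.

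miR-141-3p, its neighbour, had 5 of 6 Control livers at the floor and 1, of week 1, at 3.96%. In NASH it stood at 8.45% and 2.47% at week 1, 2.85% and 2.93% at week 2, and the floor and 3.71% at week 6. Its difference was 0.45 (SE 0.33, adjusted p = 0.37), and at week 2, where no Control array was well above background, it was at least 1.21-fold higher in NASH.

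By single week, 0 of 5 members passed in liver at week 1, week 2 or week 6, against backgrounds of 11.6% (6.19% higher, 5.41% lower), 30.2% (18% higher, 12.1% lower) and 28.4% (12.4% higher, 16% lower). At an unadjusted p below 0.05 the count was 0 in each week, beside 94 or more of all 388. The diet effect did not pass as different between weeks for any member (background 3.09%; adjusted p = 0.816 or higher). From week 2 to week 6 the count was also 0 of 5 within Control (background 0.258%, none of it higher) and within NASH (background 3.35%, with 1.29% higher and 2.06% lower), with 0 at an unadjusted p below 0.05 in both, beside 51 and 59 of all 388. Within NASH the largest difference from week 2 to week 6 was that of miR-429-3p, 0.72 (SE 0.49, adjusted p = 0.56).

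One liver array stood apart for the whole family. The week 1 NASH array labelled replicate 1 had the highest level of all 12 livers for each of the 5 members, at 34.3%, 21.6%, 8.96%, 7.30% and 8.45%, against 14.4%, 9.57%, 3.70%, the floor and 2.47% on the other array of its group. Over all tested miRNAs those 2 arrays correlated at r = 0.994. Without replicate 1 the week 1 difference was below 0 for each of the 5 members, from -0.29 for miR-141-3p to -0.035 for miR-200b-3p. Leaving out either of the 2 arrays also changed which members passed over the weeks.

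**Figure D2:**
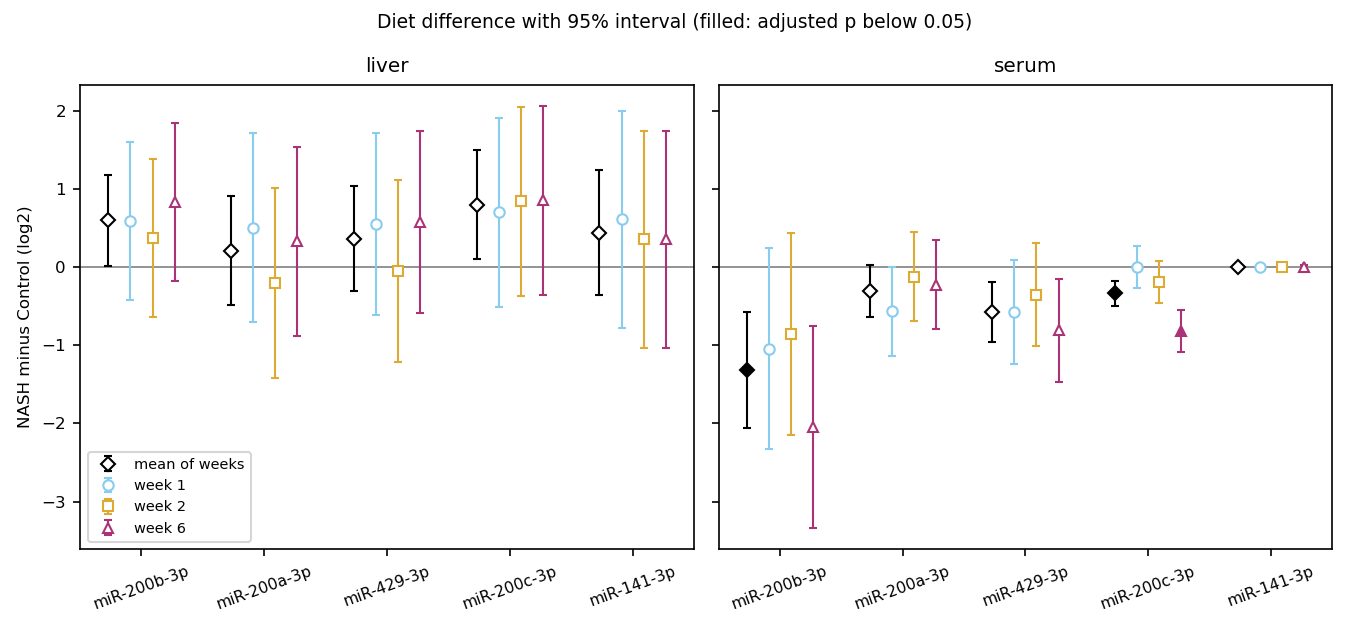
NASH minus Control difference (log2) of each member, over the weeks and by week, with its 95% interval from limma, for liver (left) and serum (right); filled symbols have an adjusted p below 0.05. No liver symbol is filled, and in serum miR-200b-3p (-1.31) and miR-200c-3p (-0.33) are filled over the weeks and miR-200c-3p (-0.82) at week 6.

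In serum, over the weeks, miR-200b-3p fell in NASH. miR-200c-3p also passed as lower, but it was tested only because 3 Control arrays detected it, and no NASH array did, so that its test rests on values at the floor. These were 2 of 5 members, and none rose, against a background of 18.8% of the 426 miRNAs tested in serum, 13.8% lower and 4.93% higher. No member had all 6 NASH sera below or all 6 above the 6 Control sera (backgrounds 4.23% and 2.35%). With the array number as a replicate block, a pairing that the serum labels leave unsettled, 0 of 5 passed (miR-200b-3p at -1.24, adjusted p = 0.16; miR-200c-3p at -0.36, adjusted p = 0.12). That block fit also left out the NASH week 6 serum whose label has no number, so its result cannot be credited to the block alone. The count also changed with the floor: it was 5 of 5 lower with a floor 0.1 times as high, miR-141-3p included although no serum array read it well above background, and 0 of 5 with the floor doubled. Under scaling over all probes that split of all miRNAs turned, from 21 higher and 59 lower to 32 higher and 7 lower, and 0 of 5 members passed. The median over the 196 miRNAs detected on every serum array moved from -0.28 to 0.35 between these scalings, so the differences over the weeks are also given relative to it. For members mostly at the floor, tied values enter the difference, and that comparison is not like for like.

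miR-200b-3p was the one member with the detection flag set on all 12 serum arrays. In Control it stood at 8.61% and 12.9% at week 1, 3.99% and 12.0% at week 2, and 18.4% and 13.4% at week 6. In NASH 1 array of week 1 stood at 6.89%, and the other 5 were at the floor of 3.81%, their signals before the floor being 2.40% to 3.60%. Diets overlapped across weeks through the low Control array of week 2, and within each week every NASH array lay below both Control arrays. At week 2 this order rests on a Control value of 3.99%, close to the floor. In that week 1 of 2 Control arrays and 2 of 2 NASH arrays were well above background. For such a placing of 2 against 2 arrays, the share over all tested miRNAs was not counted.

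The serum difference of miR-200b-3p was -1.31 (SE 0.31, adjusted p = 0.03), and 6 of 6 NASH arrays lay below their week's Control mean. Relative to the median of the 196 miRNAs detected on every serum array it was -1.03, and -1.01 to -1.12 under 4 other scalings. It was -1.04 at week 1, -0.86 at week 2 and -2.04 at week 6 (SE 0.54 each; adjusted p = 0.571, 0.433 and 0.0557). Unscaled, its processed intensities were 9.18 to 82.9 in Control and 9.80 to 39.9 in NASH, and the difference without scaling was -0.68 (adjusted p = 0.18). The call was lost on leaving out any 1 of 7 of the 12 arrays (Control week 1 replicate 2, Control week 6 replicate 1, NASH week 1 replicate 1, and each NASH array of weeks 2 and 6), with an adjusted p of up to 0.0897.

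miR-200c-3p was well above background on 0 of 6 NASH sera and on 2 of 6 Control sera, 1 of week 1 and 1 of week 6. Its Control levels were the floor on both arrays of week 1, the floor and 4.93% at week 2, and 6.38% and 7.09% at week 6; all 6 NASH sera were at the floor. The fitted difference was -0.33 (adjusted p = 0.0151); with 9 of 12 values on the floor, and both arrays tied there in 4 of 6 groups, its size and its error come largely from tied values. At week 6, where 1 of 5 members passed against a background of 12% (5.4% higher, 6.57% lower), it was -0.82 at the common floor (adjusted p = 0.0145), with 1 of 2 Control arrays well above background. The NASH arrays' own lowest signals well above background, a limit on average under the common floor, lay 2.03-fold under the Control mean. This is not a bound, since 1 of the 2 Control signals was not itself well above background. Under 4 other scalings the week 6 difference ranged from -0.66 to 0. Relative to the median of the 196 miRNAs detected on every serum array the difference over the weeks was -0.051, and -0.16 to -0.51 under 4 other scalings. Signs of red cells moved with diet at week 6: the haemolysis index was -0.11 and -0.25 in NASH against 2.23 and 2.50 in Control sera, and the summed red cell markers 1463% and 825% against 5469% and 5121%. Their part in the week 6 values of the family was not tested.

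miR-429-3p lay above the floor on 5 of 6 Control sera (4.47% and 7.19% at week 1, 6.18% at week 2, 7.14% and 6.23% at week 6) and on 0 of 6 NASH sera, 2 of which were still well above background. Its difference of -0.58 (SE 0.16) did not pass over the weeks (adjusted p = 0.0511); in the fit of every probe on its own its brighter probe passed (adjusted p = 0.0358). Relative to the median of the 196 miRNAs detected on every serum array it was -0.29, and -0.27 to -0.68 under 4 other scalings. At week 6 it was -0.81 at the common floor (adjusted p = 0.113), and under 4 other scalings it ranged from -0.65 to 0. The NASH arrays' own limits lay 2.01-fold under the Control mean, which is no bound with 1 of 2 Control arrays well above background. miR-200a-3p was above the floor on 4 of 6 Control sera, at 4.52% and 7.33% at week 1, 4.49% at week 2 and 5.18% at week 6, and on 1 NASH serum of week 1 at 3.97%. Its difference was -0.30 (SE 0.14, adjusted p = 0.214). Relative to the median of the same 196 miRNAs it was -0.018, or -0.084 to -0.66 under 4 other scalings. miR-141-3p was not well above background on any serum array, and all 12 values lay on the floor, so they hold no difference between diets; its detection flag was set on 2 Control and 0 NASH sera.

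At week 1 and at week 2, 0 of 5 members passed in serum (backgrounds 1.41%, with 0.469% higher and 0.939% lower, and 2.58%, with 1.17% higher and 1.41% lower). At an unadjusted p below 0.05 the count was 0 in both weeks, beside 45 and 78 of all 426. The diet effect in serum did not pass as different between weeks for any member (background 0.469%). miR-200c-3p came closest, with an adjusted p of 0.199 by limma, and was the 1 member with an unadjusted p below 0.05, beside 29 of all 426. From week 1 to week 2 no member passed within Control (background 1.17%, with 0.469% higher and 0.704% lower) or within NASH (background 0, with 14 of all 426 at an unadjusted p below 0.05).

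The diet effects in the 2 tissues were compared in 1 fit over all 24 arrays, on a common scale from the probes well above background throughout. The effect in serum was below that in liver for 4 of 5 members, against a background of 46.4% of 293 miRNAs, 39.2% of them lower and 7.17% higher. The difference of effects was -2.45 (SE 0.38, adjusted p = 0.000137) for miR-200b-3p, -1.47 (SE 0.29, adjusted p = 0.000846) for miR-429-3p, -1.23 (SE 0.31, adjusted p = 0.00548) for miR-200a-3p and -1.01 (SE 0.22, adjusted p = 0.00211) for miR-200c-3p. For miR-141-3p it was -0.23 (adjusted p = 0.332), with 11 of 12 serum values at the floor of the common scale. At that floor lay miR-200c-3p on 6 of 6 Control livers and 6 of 6 NASH sera, and miR-429-3p on 5 of 6 of each. miR-200a-3p lay there on 5 of 6 NASH sera. The sizes and errors of these 3 members therefore come in part from tied values. In serum miR-200c-3p was detected on Control arrays only. With all its Control livers and NASH sera at the floor of the common scale, its difference could not come out above 0. Its sign was thus fixed in advance, and its passing is no support. On this scale the 129 miRNAs detected on all 24 arrays had a median of -0.71.

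Relative to that median miR-200b-3p differed by -1.74, and by -1.49 to -1.69 under 4 other scalings, and it passed under each of them (adjusted p of up to 0.0264). The other 3 members that passed kept their sign under those scalings. Among them only miR-429-3p and miR-200c-3p under median centring passed. Scaling over all probes turned the split over all miRNAs from 21 higher and 115 lower to 37 higher and 24 lower.

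The level in serum against that in liver depended on the scaling. Sera of weeks 1 and 2 were on slide 1, sera of week 6 and livers of week 1 on slide 2, and livers of weeks 2 and 6 on slide 3. The labelled input also differed throughout, at 2.5 ng for serum and 100 ng for liver. Tissue therefore cannot be told apart from input, nor from slide for most groups. In Control 2 of 5 members were higher in serum (background 83.3% of 293, with 61.1% higher and 22.2% lower) and in NASH 2 of 5 were lower (background 68.6%, with 38.6% higher and 30% lower), the latter being miR-200b-3p and miR-200a-3p. In NASH both were lower in serum under all 4 other scalings too, with miR-200b-3p at -1.98 (SE 0.27, adjusted p = 8.34e-06) and miR-200a-3p at -1.56 (adjusted p = 1.28e-05). In Control the difference between tissues turned sign under at least 1 of the 4 other scalings for 4 of 5 members, all but miR-200a-3p, so no direction is given.

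The loci were compared by the mean log2 level of miR-200b-3p, miR-200a-3p and miR-429-3p against that of miR-200c-3p and miR-141-3p. In liver the first locus mean was 0.39 higher in NASH and the second 0.62 higher, so that the first minus the second shifted by -0.23 over the weeks, by -0.11 at week 1, -0.56 at week 2 and -0.027 at week 6. In serum the first locus mean was 0.73 lower in NASH and the second 0.17 lower, a shift of -0.56. There miR-141-3p was at the floor on all 12 arrays and adds 0 to the second mean, so that this shift sets 3 members against miR-200c-3p alone and does not compare the loci. With a floor 0.1 times as high it was -0.61 in liver and 0.85 in serum, and with the floor doubled 0.21 and -0.20. At the same floor the liver shift was also above 0 without scaling, with the mean of probes and with normexp. These means are descriptions, with no test, and the data give no stable order of the 2 loci in their response.

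**Figure D3:**
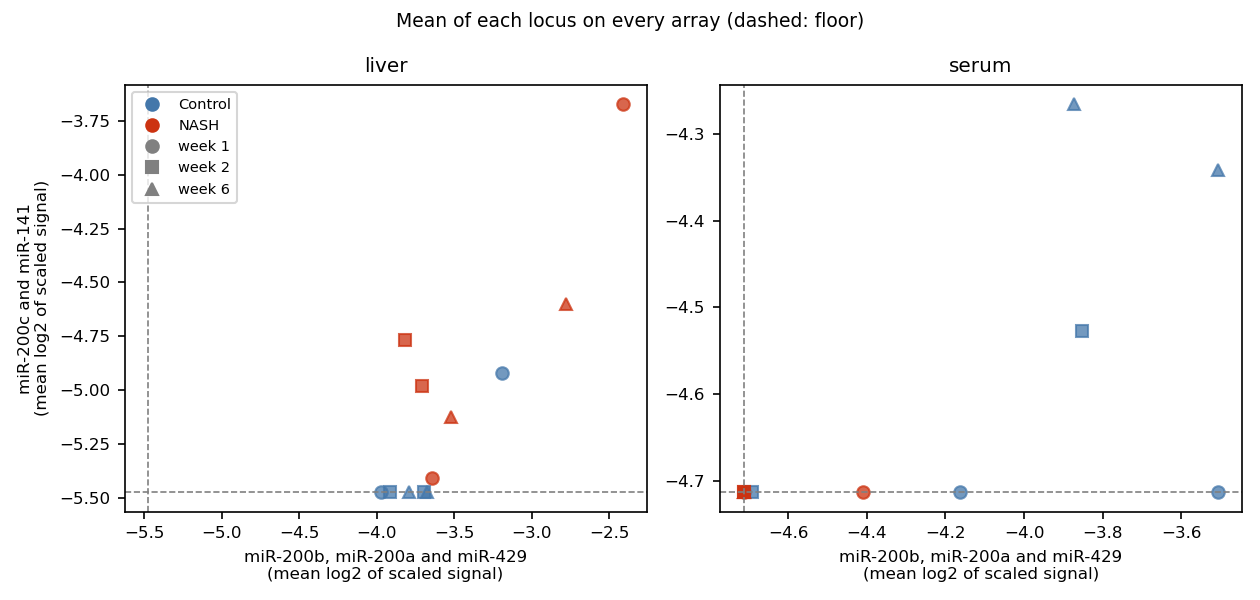
Mean log2 level of the locus of miR-200b, miR-200a and miR-429 (horizontal) and of the locus of miR-200c and miR-141 (vertical) on each array, in units of log2 of the scaled signal, for liver (left) and serum (right); colours give the diet, symbols the week and dashed lines the floor. In liver 5 of 6 Control arrays lie on the floor of the second locus, and in serum 5 of 6 NASH arrays lie on the floor of both.

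The members varied together across livers. Pearson's r over the 12 livers was 0.77 to 0.95 within the first locus, 0.80 between miR-200c-3p and miR-141-3p, and 0.60 to 0.88 across loci, as a description of arrays that share diet, scaling and near-identical probes. With the group means taken out, r was 0.74 to 0.98. In serum r over 12 arrays was 0.94 for miR-200b-3p with miR-429-3p, 0.75 for miR-200a-3p with miR-429-3p and 0.09 for miR-200a-3p with miR-200c-3p; miR-141-3p had no spread there.

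Outside the family, the tested miRNAs most like the first locus in liver, of 253 above the floor on at least 6 arrays, were miR-195a-5p (r = 0.79), miR-199a-3p (r = 0.77) and let-7i-5p (r = 0.70) over 12 arrays. For the second locus they were miR-5121 (r = 0.76), let-7e-5p (r = 0.75) and miR-18a-5p (r = 0.74). In serum, of 252, they were miR-10b-5p (r = 0.95), miR-100-5p (r = 0.91) and miR-203-3p (r = 0.89) for the first locus, and miR-30e-3p (r = 0.84), let-7b-5p (r = 0.80) and miR-3620-3p (r = 0.80) for the second. With miR-141-3p at the floor on all 12 sera, the second locus there is miR-200c-3p alone. That member was at the floor on 3 of 6 Control and 6 of 6 NASH sera, so these r values rest on few arrays.

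The passenger arms of the 5 hairpins, the strands usually degraded, were not detected. Their 18 probes were well above background on 0 of 24 arrays, and no detection flag was set for miR-200b-5p, miR-200a-5p, miR-429-5p, miR-200c-5p or miR-141-5p.

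Other miRNAs of epithelial cells were read from a list of 7, of which 3 were tested in each tissue. In liver 2 of 3 fell in NASH: miR-203-3p, known from the skin, by 1.12 (adjusted p = 0.000704), and miR-31-5p by 0.50 (adjusted p = 0.00737), while miR-96-5p stood at -0.053 (adjusted p = 0.984). Without scaling neither passed. In serum 2 of 3 fell: miR-205-5p, of stratified epithelia, by 2.94 (adjusted p = 0.00154), and miR-375-3p, of pancreatic islets and gut epithelium, by 2.46 (adjusted p = 0.00217). Both also passed under the 4 other scalings, and miR-203-3p stood at -0.81 (adjusted p = 0.104). The list's median was -0.50 in liver and -2.46 in serum, beside 0 and -0.11 over all tested miRNAs.

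A list of 10 miRNAs of mesenchymal and fibroblast cells stood for the cell state opposed to the epithelial one. In liver 5 of 10 rose and 0 fell, among them miR-214-3p (1.57), miR-199b-5p (1.23), miR-199a-5p (0.87) and miR-221-3p (0.71), with adjusted p of 0.00361 or lower, and the list's median was 0.46, with miR-21a-5p at -0.58 (adjusted p = 0.141). The list's summed level had a median of 3086% in Control and 2491% in NASH livers. In serum 2 of 10 rose and 4 fell, with a median of -0.77: miR-214-3p fell by 2.05 (adjusted p = 0.00217), miR-10b-5p by 1.32 (adjusted p = 0.0291) and miR-199a-5p by 1.29 (adjusted p = 0.0143), and miR-21a-5p rose by 1.33 (adjusted p = 0.0226). The summed level had a median of 488% in Control and 957% in NASH sera. Without scaling 1 of 10 fell in serum, miR-214-3p.

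Markers of other cells moved with the diets too. The hepatocyte markers fell in liver (4 of 4; summed level 15871% to 18260% in Control, 6391% to 12138% in NASH) and rose in serum (4 of 4). The leukocyte markers miR-223-3p, miR-155-5p and miR-150-5p rose in liver (3 of 5; 95.2% to 134.7% against 178% to 342%), and 3 of 5 fell in serum (443% to 942% against 290.0% to 698%), none of them without scaling. The red cell markers fell in liver (3 of 4; median 605% in Control and 273% in NASH) and spanned 3086% to 6728% in Control and 825% to 7201% in NASH sera, where 2 of 3 tested fell. Both endothelial and platelet markers, miR-126a-3p and miR-126a-5p, fell in liver (589% to 761% against 301% to 706%) and 0 of 2 passed in serum. Without scaling 2 of 4 hepatocyte markers fell in liver, and none of the red cell or endothelial ones there or of the red cell ones in serum. The part of these cells in the family's values was not tested. Control and NASH arrays also sat in different columns of each slide, and these cannot be told apart from the diets.

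**Figure D4:**
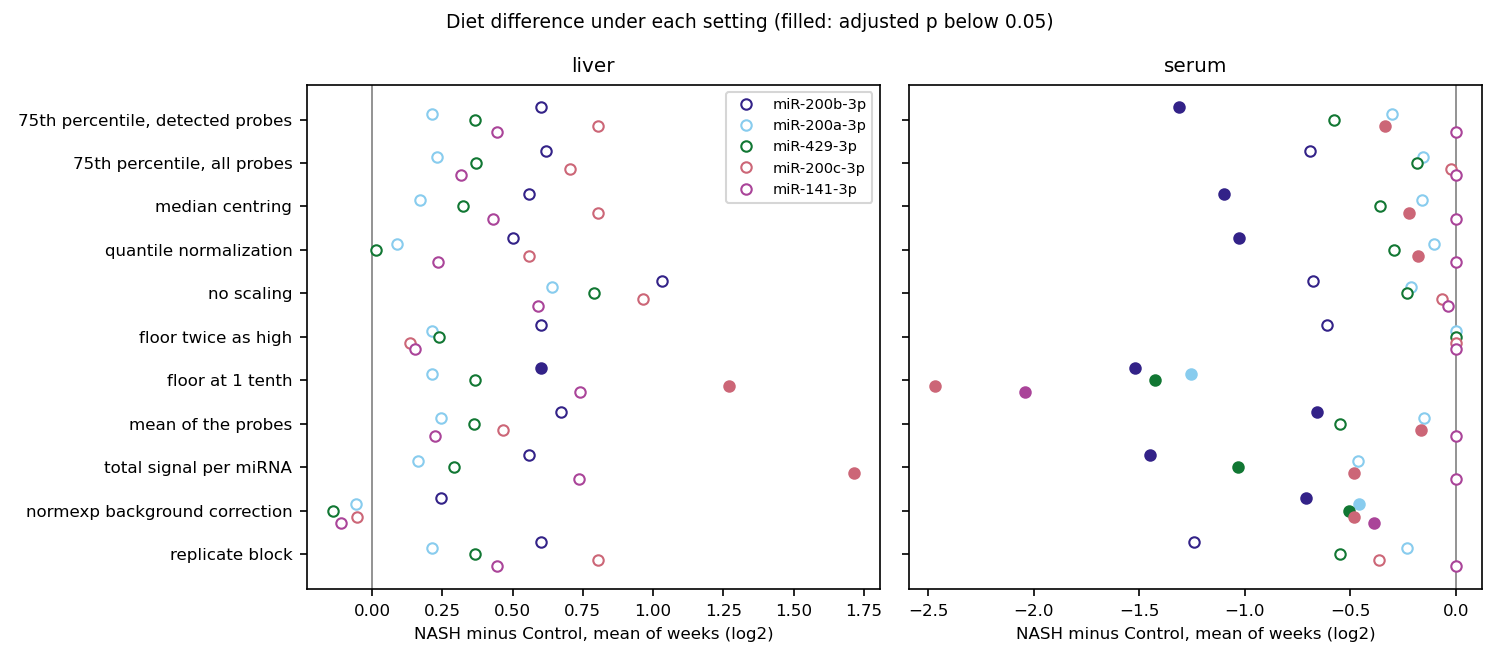
NASH minus Control difference over the weeks (log2, horizontal) of each member under the main setting and 10 alternatives (rows), for liver (left) and serum (right); filled symbols have an adjusted p below 0.05. The serum difference of miR-200b-3p is below 0 in each row, from -1.52 to -0.61, while that of miR-200c-3p moves from 0 with the floor doubled to -2.47 with a floor 0.1 times as high.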

How the data were processed

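Each deposited file gives the intensity of every spot on a 1-colour (Cy3) array, per the file headers, as written by Agilent Feature Extraction 11.5 (submitters' processing notes). The processed signal is background-subtracted and was not normalized between arrays. Array number limits the precision: 2 per group.

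Control and outlier spots were left out, 15 spots averaged per probe, and each array divided by its 75th percentile over probes well above background (50% of spots or more) on all arrays of the tissue (299 in liver, 253 in serum). Signals under a floor (each array's 5th percentile among signals well above background, median taken across arrays) were raised to it before log2. The brightest probe stood for a miRNA; those detected on 2 or more arrays were tested. No spot was saturated. limma 3.58.1 (R 4.3.3) was fitted per tissue to 6 groups with eBayes and Benjamini-Hochberg adjustment, and over 12 groups for tissue contrasts. Code was tested on simulated data.

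Named were the 5 members, their 5p arms, up to 4 examples per list by size of the diet difference, and the 3 most correlated miRNAs per locus and tissue. The members and lists were chosen with earlier results of these data known. Alternatives covered signal, background correction, scaling, floor, filter, probe summary, blocks and left-out arrays. Whether array numbers pair the samples was checked by the correlation of same-numbered deviations from the group means. It was -0.46, 0.33 and 0.44 in liver and 0.53, 0.13 and 0.18 in serum at weeks 1, 2 and 6. Whether the numbers pair the arrays is unsettled in both tissues, since no label says what a number marks. In serum 1 week 6 label has none.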

Additional observations from a re-analysis of the deposited data

Results flagged for a closer look

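In 4 of 16 sets of 6 arrays with values off the floor, 1 array lay far from the other 5 by Dixon's ratio, where chance gives about 1 in 20. In Control livers the week 1 array labelled replicate 2 stood at 2.75% for miR-200c-3p and at 3.96% for miR-141-3p, with the other 5 arrays at the floor. In NASH sera the week 1 array labelled replicate 2 stood at 6.89% for miR-200b-3p and at 3.97% for miR-200a-3p, with the other 5 at the floor. Since those 5 values are equal by construction, any array above the floor meets this criterion.

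The diet effect differed between serum and liver by the test of the difference itself for 4 members: -2.45 for miR-200b-3p, -1.47 for miR-429-3p, -1.23 for miR-200a-3p and -1.01 for miR-200c-3p (limma, adjusted p of 0.00548 or lower). For miR-429-3p, miR-200a-3p and miR-200c-3p, 5 or 6 of 6 NASH sera lay at the floor of the common scale. For miR-200c-3p all Control livers lay there too, so its difference could not come out above 0. With each tissue scaled on its own probes, chosen after the data were seen, miR-200b-3p differed by -1.92 (adjusted p = 0.00161) and miR-200a-3p by -0.51 (adjusted p = 0.229).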

How the results depend on the processing

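The number of arrays and the floor limit these results: 35.6% of tested liver values and 39.1% of serum values lay on the floor. Counts are members passing of up to 5 tested (limma). With miRNAs detected on every array, only miR-200b-3p was left to test in serum and between tissues. In liver that filter left miR-200b-3p, miR-200a-3p and miR-429-3p. A lower count under it is therefore not in itself a lost call. With each probe on its own, miR-141-3p was not tested in serum. Over all miRNAs the number passing between tissues also moved with the setting, left-out arrays aside, and so in part did the number tested. It was 104 to 516 in NASH, 118 to 580 in Control and 61 to 289 for the difference of diet effects. The moves in the member counts are therefore not particular to the family. Between tissues, scaling each tissue on its own and using slide 2 alone were chosen after the data were seen. In NASH (2 passed) the count was 1 with miRNAs detected on every array and on slide 2 alone, 4 with quantile normalization, all-probe scaling or total signal, 5 with a floor 0.1 times as high or no scaling, and 2 to 5 on leaving out each array. In Control (2) it was 0 with miRNAs detected on every array, 4 with each tissue scaled on its own, 5 with normexp, and 2 to 3 leaving out arrays. For the difference of diet effects (4) it was 1 with miRNAs detected on every array, no scaling, quantile normalization or all-probe scaling, and 4 to 5 leaving out arrays.

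In liver over the weeks (0) the count was 1 with miRNAs detected on every array, each probe on its own (counting each member's brightest probe; the other probe of miR-200b-3p also passed, at 0.74, adjusted p = 0.0376) or total signal, 2 with the lower floor, and 0 to 3 leaving out arrays; at week 2 it was 1 with the lower floor, and in each single week 0 to 1 leaving out arrays. In serum over the weeks (2) it was 1 with miRNAs detected on every array, 3 with each probe on its own, where miR-429-3p passed, 5 with the lower floor or normexp, 0 with the floor doubled, no filter, no scaling, all-probe scaling or the replicate block, and 1 (without Control week 1 replicate 2) to 4 (without Control week 1 replicate 1) leaving out arrays. At week 1 (0) it was 1 with the lower floor; at week 2 (0) it was 2 with the lower floor, 5 with normexp, and 0 to 1 leaving out arrays. At week 6 (1) it was 2 with each probe on its own, median centring, quantile normalization or the slide row as a block, 3 with total signal, 5 with the lower floor or normexp, 0 with the floor doubled, no filter, no scaling, all-probe scaling, the replicate block or the 4 arrays of the week alone, and 1 to 2 leaving out arrays. For the difference between weeks it was 1 with median centring or total signal and 0 to 1 leaving out arrays. Within Control from week 1 to week 2 it was 5 with normexp and 0 to 1 leaving out arrays. The offset of normexp makes dim values follow the inverse of the array's percentile in serum too. That percentile was 0.78 higher in NASH serum on the log2 scale, the direction that lowers dim NASH values. With normexp 365 of all miRNAs passed in serum over the weeks, against 80 in the main setting. The part of the offset in the serum counts with normexp was not tested.

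The shift between loci was -0.61 in liver and 0.85 in serum with the lower floor, 0.21 and -0.20 with the floor doubled, 0.10 and -0.12 with normexp, and in liver 0.081 with the mean of probes, 0.044 without scaling and -0.89 with total signal; leaving out arrays gave -0.29 to -0.12 in liver and -0.68 to -0.45 in serum. In liver with normexp, whose offset makes dim values follow the inverse of the array's percentile, the direction turned for miR-141-3p (-0.11 over the weeks, and -0.029, -0.11 and -0.19 at weeks 1, 2 and 6), miR-200a-3p (-0.057, and -0.042 at week 6), miR-200c-3p (-0.052, and -0.036 and -0.17 at weeks 1 and 6) and miR-429-3p (-0.14, and -0.095 and -0.12 at weeks 1 and 6). At week 2 it turned without scaling in liver for miR-200a-3p (0.10) and miR-429-3p (0.25), and in serum for miR-200b-3p with all-probe scaling (0.052) and miR-429-3p with total signal (0.27); the cause was not tested. Leaving out arrays gave week 1 liver ranges of -0.29 to 1.48 for miR-141-3p, -0.078 to 1.09 for miR-200a-3p, -0.035 to 1.22 for miR-200b-3p, -0.13 to 1.53 for miR-200c-3p and -0.079 to 1.20 for miR-429-3p. The range was -0.11 to 0.77 for miR-200a-3p at week 6 and -0.16 to 0.058 for miR-429-3p at week 2.

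Over all miRNAs, 163 passed in liver over the weeks, against 100 with all-probe scaling, 108 with no filter, 252 with the lower floor and 295 probes on their own; in serum 80 passed, against 24 with the replicate block, 35 with no filter, 39 with all-probe scaling, 44 without scaling, 135 with the lower floor, 151 probes on their own and 365 with normexp. Under the replicate block, in which same-numbered arrays share a term, the serum calls of miR-200b-3p (-1.24) and miR-200c-3p (-0.36) were not kept. That fit also left out the NASH week 6 serum whose label has no number. Leaving out that array alone, without a block, also ended the call of miR-200b-3p (-1.32). For this member the loss cannot be credited to the block. Whether serum numbers mark pairs is unsettled, and a call lost there is not a weaker effect.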
